A study of Mus musculus with 8 samples.

Results

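The naive pluripotency transcription factors are 10 genes chosen by symbol: Pou5f1, Nanog, Klf2, Klf4, Klf5, Esrrb, Zfp42, Tfcp2l1, Prdm14 and Nr0b1. All 10 were found among the 32567 genes of the RNA-seq count table, and all 10 lay above the level limit that 14417 genes passed, a log2 CPM (a gene's counts scaled to library size) averaged over the 4 libraries above 0. Poly-A-plus RNA was sequenced from mouse embryonic stem cells (ESC) and from cells differentiated through embryoid bodies with retinoic acid (RA-DIFF), each in a wild-type (WT) and a huntingtin-null line; the latter carries the Hdh ex4/5 null allele of the huntingtin gene Htt on both chromosomes (Htt-null). Both lines were grown with leukaemia inhibitory factor (LIF) and serum as ESC and kept off feeder cells for 4 passages before embryoid bodies were formed. Each condition has 1 library and each genotype 1 cell line, so genotype and line cannot be told apart, no difference between the genotypes has a replicate check, and no p-value is given for one. The change with differentiation was measured in both lines, and a fit over the 2 lines, added after results had been seen, gives a test of it. Intervals below are 95% exact binomial intervals on counts and cover counting error only. Gene positions are on GRCm38. Total counts were 63617410 to 110569127 per RNA-seq library.

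Naive pluripotency is the state of the preimplantation epiblast, which mouse ESC keep in culture under LIF. Pou5f1 (Oct4) and Nanog stand at the centre of its gene network, in which Pou5f1 pairs with Sox2 on DNA, and Esrrb, Tfcp2l1 and the Klf factors hold the network in its naive form. These genes are shut down as cells lose pluripotency, and retinoic acid speeds that loss in embryoid bodies.

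The targeted gene went against its labels in RA-DIFF. Htt stood at 166 TMM-scaled CPM in WT ESC and 111 in Htt-null ESC, but at 73.3 in the RA-DIFF library labelled WT and 98.7 in that labelled Htt-null. In the study's own supplement the per-condition values of these differentiated cells follow the deposited columns the other way round. The RA-DIFF libraries are therefore called by their deposited labels, and values carry those labels unless they are said to be given with the labels exchanged.

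The promoter of Nanog is shown because it carries the Pou-Sox pair, and that of Zfp42 because this member lost most among those with a window that holds the Pou octamer core. Capitals mark matches on either strand to the octamer core TTTGCAT, the Sox motif ACAATG, the Esrr motif AAGGTCA or the Klf motif GGGNGTGG; each stretch is the 250 bases before the RefSeq start site on GRCm38.p6, read along the gene.
Nanog, chr6:122707239-122707488, plus strand: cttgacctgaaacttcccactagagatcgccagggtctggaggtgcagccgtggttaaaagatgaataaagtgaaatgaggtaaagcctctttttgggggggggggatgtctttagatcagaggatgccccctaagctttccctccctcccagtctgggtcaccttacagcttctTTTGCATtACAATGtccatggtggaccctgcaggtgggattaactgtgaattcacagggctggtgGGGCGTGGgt
Zfp42, chr8:43307010-43307259, minus strand: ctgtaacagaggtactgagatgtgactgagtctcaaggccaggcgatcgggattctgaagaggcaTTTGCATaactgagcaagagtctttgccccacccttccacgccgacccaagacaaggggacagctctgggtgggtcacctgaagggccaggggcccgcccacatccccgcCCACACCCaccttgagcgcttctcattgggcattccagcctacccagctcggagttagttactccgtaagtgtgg

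Windows of 300 bases from RefSeq, 250 before to 50 after the start, were used for 8 of the 10 members; those of Klf5 and Prdm14 were not analysed here. In the Nanog window the octamer core began 75 bases upstream of the start and was followed, after 1 base, by the Sox motif. This arrangement occurred in 2 of 32851 windows (0.00609%), and both are the overlapping windows of Nanog. The octamer core alone was held by 4.63% of all windows and, among members, by those of Nanog and Zfp42. The Klf motif was held by 17.6% of all windows and by those of 4 members, Pou5f1, Nanog, Zfp42 and Tfcp2l1. The Sox motif (12.6% of all windows) was matched in Pou5f1, Nanog and Esrrb, and the Esrr motif (4.72%) in none of the 8. A match of letters is not a binding site, and these windows leave out distal enhancers.

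In ESC every member was well expressed, and in RA-DIFF all 10 were lower in both lines. Of all genes above the level limit, 24.9% were lower by over 0.75 on the log2 scale in the WT-labelled comparison, and 10 of 10 members were; 32.5% of genes and 0 members were higher. In the comparison labelled Htt-null 23.5% of genes and 10 members were lower, and 32.9% of genes and 0 members were higher. With both lines in 1 edgeR quasi-likelihood fit of stage, line as a block and 1 residual degree of freedom, all 10 members were lower, with log2 ratios of -8.27 (Zfp42) to -2.84 (Klf5) and adjusted p-values of 0.00423 (Klf4) to 0.0161 (Prdm14), beside 21.1% of all genes lower and 27.9% higher. With the RA-DIFF labels exchanged the adjusted p-values of this edgeR fit ran from 0.00168 (Klf4) to 0.0115 (Nr0b1). The lines differ in genotype, so the fit takes the spread between them as replicate error. The median member kept 1.46% of its ESC level in the library labelled WT and 0.242% in that labelled Htt-null, while the median of the 9400 genes with at least 10 CPM in both ESC libraries kept 92.6% and 97.7%. In such bulk samples fewer cells of a type and less RNA per cell cannot be told apart.

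**Figure D1:**
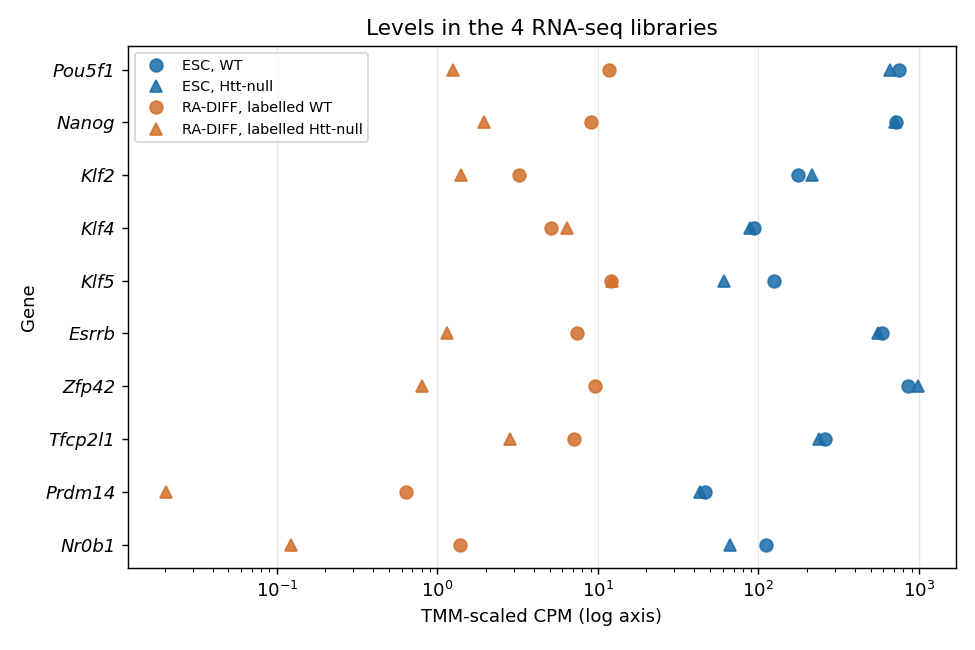
TMM-scaled CPM (log axis) of the 10 naive factors in each of the 4 RNA-seq libraries, 1 point per library. Both ESC points lie above both RA-DIFF points for every gene, and the RA-DIFF points lie furthest apart for Prdm14, at 0.634 and 0.0203.

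Pou5f1 (chr17:35506018-35510772), the POU factor without which ESC do not remain pluripotent, stood at 757 and 657 CPM in WT and Htt-null ESC and at 11.8 and 1.25 CPM in RA-DIFF labelled WT and Htt-null. It kept 1.56% (1.48 to 1.65) and 0.190% (0.158 to 0.227). An antisense gene, Gm19553, shares 317 exon bases with it and had 50, 41, 1 and 0 counts in the same order, beside 65651, 42853, 1324 and 123 for Pou5f1. The sense gene thus held nearly all counts of the locus.

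Nanog (chr6:122707489-122714633), a homeobox factor that sustains self-renewal, had 715 and 707 CPM in ESC and 9.004 and 1.96 CPM in RA-DIFF. The share left was 1.26% (1.18 to 1.34) and 0.277% (0.239 to 0.319). Zfp42 (Rex1, chr8:43295068-43307009), a zinc finger gene widely used to report the naive state, fell from 858 and 986 CPM to 9.58 and 0.802 CPM. Its shares of 1.12% (1.05 to 1.19) and 0.0814% (0.0644 to 0.101) were the lowest of the members in the WT-labelled library and the second lowest in the other.

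Esrrb (chr12:86361117-86521628), an orphan nuclear receptor that can stand in for Nanog in self-renewal, went from 586 and 552 CPM to 7.36 and 1.15 CPM, or 1.26% (1.17 to 1.35) and 0.208% (0.171 to 0.250). Nr0b1 (Dax1, chrX:86191764-86195947), a nuclear receptor without a classical DNA-binding domain, went from 111 and 66.9 CPM to 1.39 and 0.122 CPM. It kept 1.25% (1.06 to 1.47) and 0.182% (0.0941 to 0.319). These 2 receptors thus kept close to the same share as Nanog in the library labelled WT.

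Prdm14 (chr1:13113457-13127163), which holds back FGF signalling and DNA methylation in naive cells, had 46.4 and 43.5 CPM in ESC. It had 71 counts in RA-DIFF labelled WT and 2 in that labelled Htt-null. The shares were 1.36% (1.06 to 1.73) and 0.0467%, the latter with a counting interval from 0.00565 to 0.169%. Tfcp2l1 (chr1:118627945-118685168), a CP2-family factor downstream of LIF, kept more: it went from 259 and 237 CPM to 7.13 and 2.82 CPM, or 2.75% (2.56 to 2.95) and 1.19% (1.05 to 1.34).

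The Klf factors, zinc finger proteins that share part of their targets with Nanog, did not behave alike. Klf2 (chr8:72319033-72321656) fell from 178 and 215 CPM to 3.25 and 1.41 CPM and kept 1.83% (1.64 to 2.03) and 0.657% (0.552 to 0.777). Klf4 (chr4:55527143-55532466), a direct target of LIF signalling, fell from 94.6 and 88.8 CPM to 5.13 and 6.44 CPM and kept 5.43% (4.98 to 5.90) and 7.25% (6.67 to 7.87). Klf5 (chr14:99298691-99313405) fell from 124 and 60.8 CPM to 12.0 and 12.2 CPM and kept 9.66% (9.12 to 10.2) and 20.1% (18.8 to 21.4). Klf4 and Klf5 were the 2 of 10 members that kept a larger share under the Htt-null label. With the RA-DIFF labels exchanged 9 of 10 did, Klf5 with 19.7% against 9.82% and Pou5f1 with 1.80% against 0.165%, and only Klf4 did not, with 5.78% against 6.81%.

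**Figure D2:**
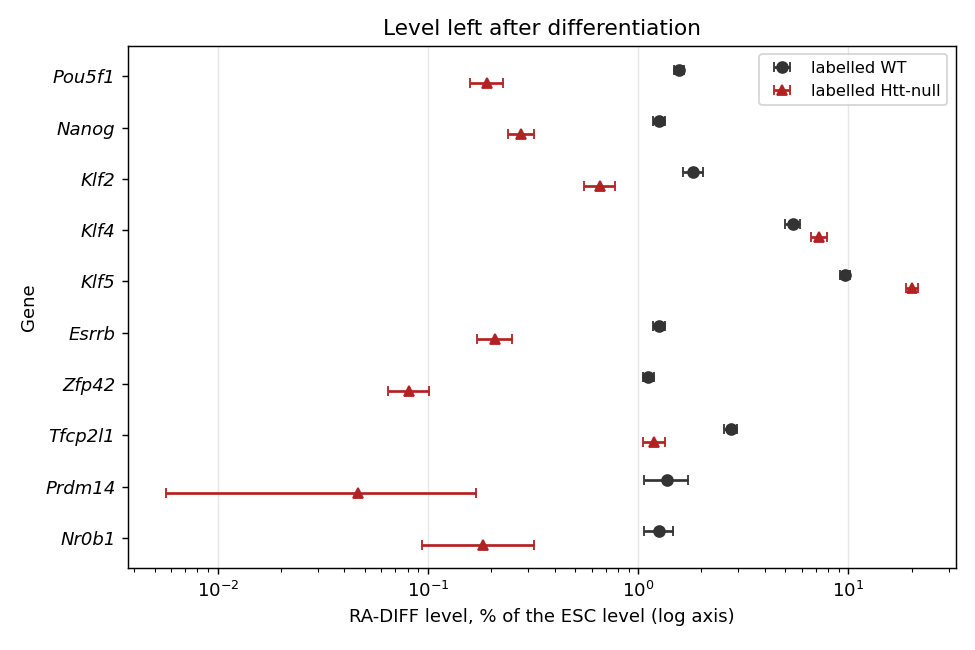
RA-DIFF level as percent of the ESC level of the same label (log axis) for each member, with 95% counting intervals as bars. Circles (labelled WT) cover 1.12 to 9.66% and triangles (labelled Htt-null) 0.0467 to 20.1%.

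The members were spread far less in one RA-DIFF library than in the other. In the library labelled WT the shares ran from 1.12 to 9.66%, a ratio of 8.65, and in that labelled Htt-null from 0.0467 to 20.1%, a ratio of 430 that rests on the 2 counts of Prdm14; without Prdm14 it was 247. For Pou5f1, Nanog, Esrrb, Zfp42, Prdm14 and Nr0b1 the range was 1.12 to 1.56% in the former and 0.0467 to 0.277% in the latter; these 6 were grouped after their values were seen. With the RA-DIFF labels exchanged the medians were 0.235% for WT and 1.66% for Htt-null, and the ranges 0.0437 to 9.82% (a ratio of 225, or 105 without Prdm14) and 0.971 to 19.7% (a ratio of 20.3).

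Among the 9400 genes, 195 (2.07%) kept under 2% in the WT-labelled library, 7 members among them, and 199 (2.12%) in the other, with 8 members. Under 0.5% were 36 genes with 0 members in the former and 96 genes with 6 members in the latter. With the labels exchanged, 212 genes with 8 members (WT) and 171 with 6 members (Htt-null) kept under 2%, and 100 genes with 6 members and 31 with 0 members under 0.5%. Ordered by the higher of their shares in both lines, Zfp42 came 83rd and Klf5 573rd of the 9400. The genes outside the list that lost most by this order were Gm7325, Fat2, Nlrp14, Gm5091, Platr22, Gm14541, Rbm44, Gm5134, Ildr1 and Lrrc2. Gm7325, the first, kept 0.0918% and 0.0130%. The 5 genes whose log2 CPM over the 4 libraries lay nearest to the members' median pattern, by Euclidean distance of centred values, were Pramef12, Dppa4, Gtsf1l, AU018091 and Lincenc1, at distances of 0.180 to 0.378; the members themselves lay at 0.398 (Esrrb) to 4.85 (Klf5).

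Per kb of exon, the order in WT ESC was led by Zfp42 (456 CPM per kb), Pou5f1 (337) and Nanog (319), and ended with Klf5 (23.9) and Prdm14 (18.1); in Htt-null ESC Klf5 was last (11.7), after Prdm14 (17.0). Esrrb and Klf2 were close, at 96.9 and 96.2 CPM per kb, and without replicates no order of neighbours can be judged. With the longest transcript as length Pou5f1 led in WT ESC, at 556 CPM per kb, and Zfp42 in Htt-null ESC, at 537 before Pou5f1 at 482; Prdm14 was then last in both. In RA-DIFF labelled Htt-null the order was headed by Klf5 and Klf4, at 2.35 and 2.11 CPM per kb, above Nanog at 0.874. In the library labelled WT Pou5f1 was first, at 5.26 CPM per kb, with Klf5 in the fourth place at 2.31.

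Between the genotypes the members differed little in ESC. Klf5 was lower in Htt-null ESC by 2.04-fold (1.97 to 2.12), a log2 ratio of -1.03, and was the only 1 of the 10 past the fold, against 2.73% of all genes lower and 4.06% higher; 0 members were higher. Nr0b1 had a log2 ratio of -0.73, just inside the limit. With DESeq2 factors Nr0b1 was past it as well, at -0.76, and with the exact test of edgeR at an assumed dispersion of 0.1 and p under 0.05 added no member was called, Klf5 included. The other 8 lay between -0.20 (Pou5f1) and 0.27 (Klf2). Nanog, at -0.02, turned to 0.04 with library size alone. Klf2 and Zfp42, the 2 members with positive ratios (0.27 and 0.20), are both on chromosome 8, where the median over 767 genes was 0.36 in ESC and -0.22 between the RA-DIFF libraries as labelled; the part of this shift in their ratios was not tested.

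In RA-DIFF 8 members were lower in the library labelled Htt-null, against 7.44% of all genes, and 0 were higher, against 11% of all genes. The log2 ratios were -3.24 (-3.52 to -2.97) for Pou5f1, -2.20 (-2.43 to -1.98) for Nanog and -3.58 (-3.93 to -3.25) for Zfp42. Esrrb stood at -2.68, Nr0b1 at -3.51, Tfcp2l1 at -1.34 and Klf2 at -1.20. Prdm14 had -4.96 with a wide interval of -8.04 to -3.06. Klf4 and Klf5 had 0.33 (0.16 to 0.49) and 0.02 (-0.09 to 0.14). With the labels exchanged all these signs turn, so the 8 members would be higher in Htt-null cells. With an assumed dispersion of 0.1 and p under 0.05 added, 7 members were called, Klf2 no longer among them.

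**Figure D3:**
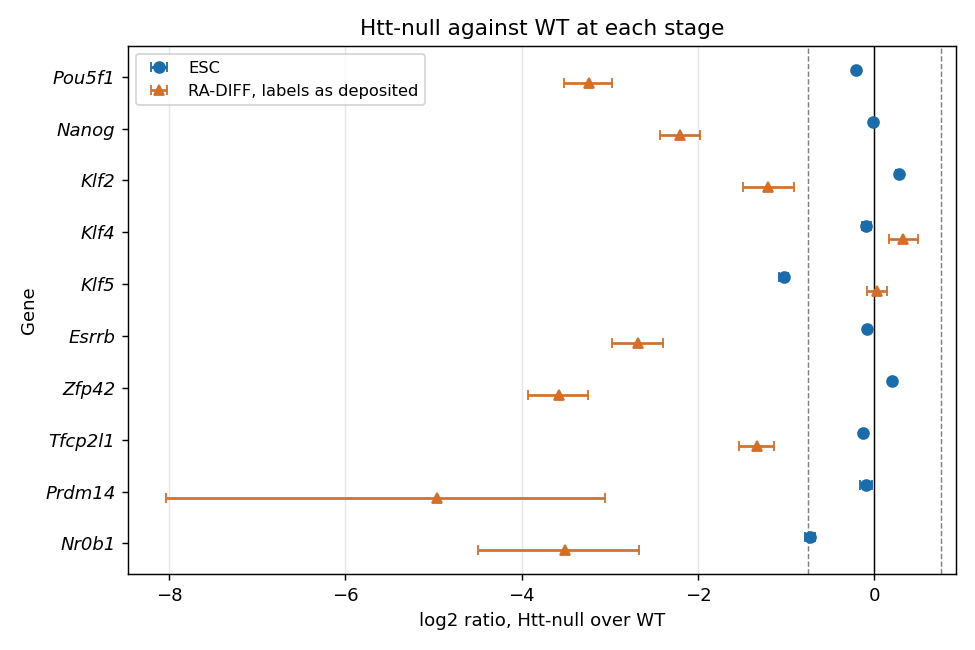
Log2 ratio of Htt-null over WT for each member in ESC (circles) and in RA-DIFF with the deposited labels (triangles), with 95% counting intervals as bars; dashed lines mark the fold limit of 0.75 in either direction. In ESC only Klf5 lies past it, and in RA-DIFF 8 members lie left of it.

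Markers of other cell types differed between the RA-DIFF libraries as well; the counts below are given for the library labelled Htt-null, beside 11% of all genes higher and 7.44% lower, and exchanging the labels turns each direction. The summed level of 8 smooth muscle genes was 90.0 CPM in that labelled WT and 932 in that labelled Htt-null, with 5 of the 6 above the level limit called higher; Acta2 alone made up 41.0 and 635. The 10 fibroblast genes summed to 591 and 1668 CPM (7 of 9 higher), with Col3a1 at 364 and 922, and the 12 neuron genes to 3033 and 1435 CPM (9 of 12 lower). Kdr made up 17.9 and 71.7 of the 26.6 and 95.6 CPM of 8 endothelial genes (3 of 6 higher), and Lamb1 63.0 and 208 of the 82.7 and 270 CPM of 10 endoderm genes (4 of 7 higher). Sums were 30.6 and 23.6 CPM for 8 epithelial genes (2 of 6 higher, 1 lower), with Cdh1 at 18.6 and 11.4, and 56.8 and 49.7 for 9 germline genes (2 of 8 higher, 2 lower), with Kit at 38.8 and 32.7. The 8 progenitor genes summed to 4411 and 5646 CPM, of which Vim made up 1712 and 2906, with 1 called higher and 3 lower. Every gene of the smooth muscle list had more than 3 counts in each library. The part of these cells in the members' levels was not tested.

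Other factors of the pluripotent state changed less uniformly than the members. Of 14 transcription and chromatin factors, all above the level limit, 11 were lower in the WT-labelled comparison (24.9% of all genes) and 12 in the other (23.5%). Their medians were -4.11 and -3.92 on the log2 scale, beside -6.10 and -8.70 for the members and 0.11 and 0.16 for all genes. Sox2, the partner of Pou5f1 that neural progenitors also express, kept 36.9% and 42.9%. Utf1 lost most, keeping 0.328% and 0.0507%, and Nacc1 had 106% and 77.5% left. Tbx3, a LIF-responsive T-box factor, kept 2.10% and 12.2%. Sall4, a zinc finger factor, kept 17.9% and 4.26%.

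Of 12 further transcripts used as ESC markers, 12 were lower in each comparison (24.9% and 23.5% of all genes), with medians of -6.46 and -8.63. Fgf4, the ligand that drives exit from the naive state, kept 0.367% and 0.0264%. Spp1 was the exception in the order of the libraries, with 2.15% and 15.7% left. In RA-DIFF 8 of the 12 were lower in the library labelled Htt-null and Spp1 was higher, and of the 14 factors 6 were lower and Tbx3 was higher, beside 7.44% of all genes lower and 11% higher; exchanging the labels turns these directions.

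**Figure D4:**
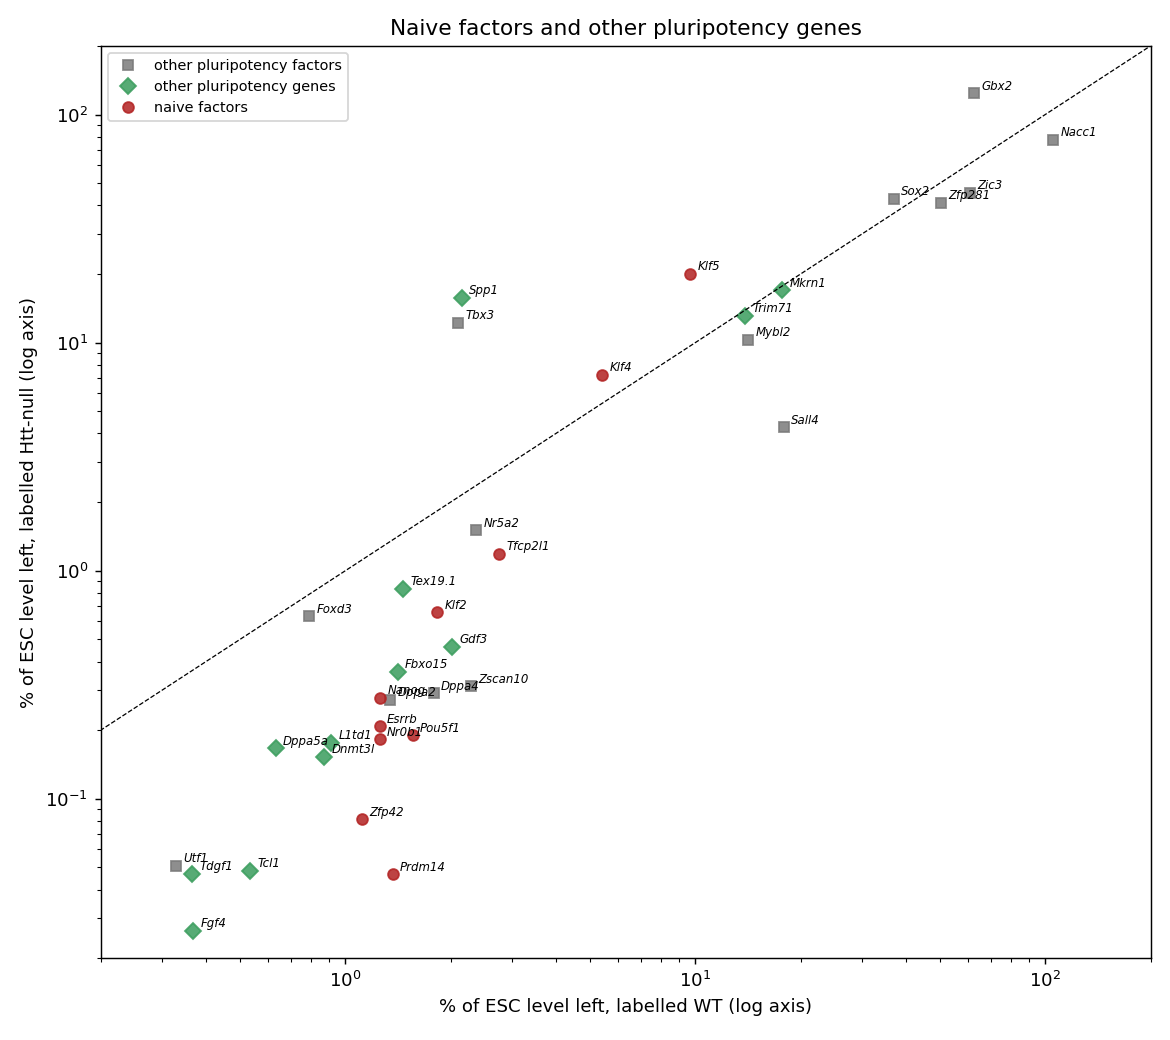
Percent of the ESC level left in RA-DIFF labelled WT (x, log axis) and labelled Htt-null (y, log axis) for the naive factors, 14 other pluripotency factors and 12 other pluripotency genes, with the dashed line marking equal shares. Most naive factors lie below the line, and Klf4 and Klf5 above it, as do Tbx3, Gbx2, Sox2 and Spp1.

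LIF signalling genes, which feed Klf4 and Tfcp2l1, changed in part. Of 8 genes 5 were lower in the WT-labelled comparison (24.9% of all genes) and 4 in the other (23.5%), where Stat3 was higher, at 219% of its ESC level. Between the RA-DIFF libraries 4 of 8 were higher in that labelled Htt-null (11% of all genes), among them Stat3 (1.16) and Socs3 (1.01). With the labels exchanged 4 would be lower and 0 higher in Htt-null cells, and Stat3 would stand at 258% of its ESC level in WT and 98.3% in Htt-null cells. The Klf family at large held 14 genes above the level limit of 17 listed, members included. Of these 9 and 7 were lower with differentiation, Klf2, Klf4 and Klf5 among them, beside 24.9% and 23.5% of all genes. In each comparison 2 were higher, beside 32.5% and 32.9% of all genes. Klf9 kept 2.46% and 4.20%, while Klf7 rose to 438% and 338%.

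Of 10 factors known for shutting down naive genes, the COUP-TF receptors Nr2f1 and Nr2f2 had log2 ratios of 8.74 and 7.92 in the WT-labelled comparison and 8.47 and 8.31 in the other. They were the 2 of 10 called higher in each, below the 32.5% and 32.9% of all genes, and 4 of 10 were lower, beside 24.9% and 23.5%. The same shares of all genes stand beside the counts of the next lists. Tcf7l1, a repressor of Nanog, had log2 ratios of -0.62 and 0.62. Of 11 genes of the formative and primed epiblast, 9 passed the level limit, with 6 and 5 higher and 2 and 4 lower. Under the limit were Fgf5, which kept 12.6% and 31.9%, and T, at 164% and 4086% from 32 and 19 counts in ESC. Otx2 reached 336% and 250%, and Dnmt3b kept 12.6% and 12.8%. Of 16 close paralogues of the members, 14 passed, with 8 and 6 higher and 3 and 5 lower. Pou3f2 had the highest ratios, 10.2 and 8.23 on the log2 scale, and Grhl2 the lowest, -6.46 and -6.86.

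The miR-290 cluster, the main miRNA cluster of ESC, was measured in 4 small RNA libraries of the same conditions with 11976744 to 25656673 counts each. Of its products miR-291a-3p, miR-294-3p and miR-295-3p are shown because they share 1 seed, bases 2 to 8, in capitals. The same seed is carried by miR-302b-3p and miR-302d-3p of the miR-302 cluster. The sequences are those of RefSeq.
miR-291a-3p: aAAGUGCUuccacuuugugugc
miR-294-3p: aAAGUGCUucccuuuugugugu
miR-295-3p: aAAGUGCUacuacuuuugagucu

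The 16 listed products of the cluster took 24.9% and 20.05% of the small RNA counts in WT and Htt-null ESC, and 0.198% and 0.354% in RA-DIFF labelled WT and Htt-null. In plain CPM 0.796% and 1.77% of the ESC level were left, and with TMM factors, which ran from 0.4996 to 1.84 in these libraries, 1.78% and 6.49%. More of the cluster was thus counted in the library labelled Htt-null, the reverse of the order of 8 members. The 10 listed products of the miR-302 cluster had the same order as those members, at 44.6% (TMM) or 31.9% (plain CPM) of the WT-labelled level in the library labelled Htt-null. Unlike the members, they stood at 298% (TMM) in Htt-null against WT ESC, and after differentiation at 404% of the ESC level under the WT label and 60.5% under the Htt-null label; in plain CPM these were 350%, 180.4% and 16.5%. miR-295-3p alone had 1789041, 1292268, 27199 and 44739 counts. Whether the small RNA labels match those of the RNA-seq libraries was not tested.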

How the data were processed

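RNA-seq and small RNA counts were deposited as raw counts per gene and per mature miRNA. For the deposited gene counts, TopHat2 2.0.14 had mapped the reads to GRCm38.p4 and HTSeq 0.6.1 had counted them; small RNA reads were trimmed with cutadapt 1.3 and mapped with BWA 0.7.5a-r418. Counts were scaled to CPM with TMM factors (edgeR 4.0.16). Shares left and the log2 ratios of the members carry no offset; those of other genes used a prior count of 0.125. With 1 library per condition, called means past the fold only: an absolute log2 ratio above 0.75 and a log2 CPM (prior count 2), averaged over the 4 libraries, above 0. After results had been seen, differentiation was also tested over both lines, in edgeR's quasi-likelihood fit of line plus stage with Benjamini-Hochberg adjustment over these genes. Averaging logs passed fewer genes than averaging CPM; edgeR's average log CPM as the limit is an alternative added after results had been seen. The members and lists were chosen with earlier results of these data known. Named genes are Htt, the members, the 10 strongest losses and the 5 nearest patterns. List genes were named for the highest or lowest ratio or for lying past the fold in both lines. Gm19553 was named for its overlap with Pou5f1, and Fgf5 and T as epiblast genes under the level limit. Lamb1, Sall4, Spp1, Tbx3, Stat3, Socs3 and Tcf7l1 were picked with values in view. Calling was tested on simulated data.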

Additional observations from a re-analysis of the deposited data

Results flagged for a closer look

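Klf2, Zfp42 and Klf4 had opposite directions between the genotypes at the 2 stages, with each interval for counting error away from 0; the difference between stages was not tested. Klf2 had a log2 ratio of Htt-null over WT of 0.27 in ESC and -1.20 in RA-DIFF. Zfp42 had 0.20 and -3.58, and Klf4 had -0.091 and 0.33. With library size alone the ESC value of Klf4 was -0.035 (-0.084 to 0.014), an interval that includes 0. It stayed negative with DESeq2 factors (-0.12) and upper-quartile factors (-0.050), so the scaling changed whether the interval met 0 and not the sign. Nanog also had opposite directions with library size alone (0.041 in ESC and -2.25 in RA-DIFF) and with upper-quartile factors (0.026 and -2.26). Its counting intervals were then away from 0. With the RA-DIFF labels exchanged, Klf2 and Zfp42 would be higher in Htt-null cells at both stages and Klf4 lower at both. Pou5f1 (-0.20 and 3.24), Esrrb (-0.086 and 2.68), Tfcp2l1 (-0.13 and 1.34), Prdm14 (-0.094 and 4.96) and Nr0b1 (-0.73 and 3.51) would then have opposite directions in ESC and RA-DIFF, with these intervals away from 0. Klf2 and Zfp42 lie on chromosome 8, whose median over 767 genes was 0.36 in ESC and -0.22 in RA-DIFF as labelled. Exchanging the RA-DIFF labels would give this median the same sign at both stages, as it does for these 2 genes. The part of this chromosome in their ratios was not tested.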

How the results depend on the processing

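With 1 library per condition no library could be left out. The paired fit of both lines, with line as a block, was added after the data were seen and called 10 members lower and past the fold with either set of RA-DIFF labels. All 10 members were called lower after differentiation under each alternative run: library size alone, DESeq2 and upper-quartile factors, exchanged RA-DIFF labels, the exact test with an assumed dispersion of 0.01 or 0.1, no level limit, a fold limit of 1, and edgeR's average CPM as the level limit, which was added after the data were seen. That last limit passed 15492 genes in place of 14417, raised the share of genes lower in RA-DIFF labelled Htt-null from 7.44 to 9.31%, and left each count of members called as it was. Upper-quartile factors moved the median of all genes after differentiation to -0.20 and -0.25 and the share of calls that were lower from 43.4 to 55.7% (WT) and from 41.7 to 58.0% (Htt-null). In ESC the members called lower numbered 2 with DESeq2 factors, Nr0b1 having joined Klf5, and 0 with a dispersion of 0.1, which in RA-DIFF left 7 of 8, without Klf2. Exchanging the RA-DIFF labels moved the median share left to 0.235% (WT) and 1.66% (Htt-null). It turned the members called between the genotypes in RA-DIFF from 8 lower to 0 lower and 8 higher, with log2 ratios of 3.24 for Pou5f1, 2.20 for Nanog, 1.20 for Klf2, 2.68 for Esrrb, 3.58 for Zfp42, 1.34 for Tfcp2l1, 4.96 for Prdm14 and 3.51 for Nr0b1. With the longest transcript as length, 5 of 10 members kept their place in the order of WT ESC and 4 in that of Htt-null ESC. Depth limits Prdm14 most, with 2 counts in RA-DIFF labelled Htt-null.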
